A study of Mus musculus with 24 samples.

Results

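The 9 genes described here encode carriers of vitamin A and thyroxine in blood, and the enzymes, binding protein and receptor that handle vitamin A inside cells. They are Ttr, Rbp4, Lrat, Aldh1a1, Aldh1a2, Aldh1a3, Dhrs3, Crabp2 and Rarb. They were taken by gene symbol, and each was listed once in each of the 3 expression tables, which share 16695 gene symbols. The 24 libraries were made from cultures of wild-type BALB/c mouse liver, with mice of 6 to 8 weeks. The libraries labelled Pri-Hep were from primary hepatocytes, purified on Percoll and freed of cells bearing EpCAM, a surface protein of bile duct epithelium. The Hep-Orgs were hepatocyte organoids grown from such cells in Matrigel, in a medium with the Notch inhibitor DAPT and dexamethasone, and sequenced at passages P1, P5 and P10. The Cho-Orgs were organoids grown from EpCAM-positive bile duct cells (cholangiocytes) and sequenced at P0, P5 and P10. Each of these 7 groups had 3 bulk libraries of poly(A) RNA. A further experiment had 1 Smart-Seq library, from amplified full-length cDNA, for each of 3 shapes of Hep-Orgs at P0, named grape-like, intermediate and round-like after their form. The study describes these shapes for its hepatocyte medium without naming DAPT or dexamethasone as added. No group carried a transgene or a deletion.

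The liver stores and exports vitamin A. Hepatocytes secrete retinol bound to RBP4, and RBP4 circulates in a complex with transthyretin, the product of Ttr, which also carries thyroxine. Hepatic stellate cells hold most of the liver's retinyl esters, which LRAT makes from retinol. The ALDH1A enzymes oxidise retinal to retinoic acid, DHRS3 reduces retinal back to retinol, CRABP2 binds retinoic acid in the cytosol and hands it to nuclear receptors, and RARB is one of these receptors and itself a classical target gene of retinoic acid.

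Levels are given as FPKM, the number of fragments of a gene divided by its length and by the depth of the library. In mm10 coordinates, Rbp4 (ENSMUSG00000024990) lies at chr19:38116620-38125321 on the minus strand and Aldh1a1 (ENSMUSG00000053279) at chr19:20492715-20643462 on the plus strand. Lrat (ENSMUSG00000028003) lies at chr3:82892579-82903973, minus strand, and Crabp2 (ENSMUSG00000004885) at chr3:87948666-87953376, plus strand. Aldh1a2 (ENSMUSG00000013584) lies at chr9:71215789-71296243, plus strand, and Aldh1a3 (ENSMUSG00000015134) at chr7:66390890-66427517, minus strand. Dhrs3 (ENSMUSG00000066026) lies at chr4:144892827-144928209, plus strand, and Rarb (ENSMUSG00000017491) at chr14:16430839-16819156, minus strand. Ttr is ENSMUSG00000061808. The values cover whole genes and do not separate exons, introns or transcripts.

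The depth was 14068906 to 27160365 fragments per library for Pri-Hep and Hep-Orgs, which share the hepatocyte table. It was about 37470000 to 39930000 for the Cho-Orgs and 40040000 to 40380000 for the shapes of Hep-Orgs. In the hepatocyte table the labels went against the marker genes. The 3 libraries labelled Pri-Hep had a mean of 237 FPKM of Krt19 and 269 FPKM of Epcam, both markers of bile duct epithelium, and 112 FPKM of Alb, the gene of serum albumin. Over these 3 libraries 10 cholangiocyte markers summed to 4096 to 4180 FPKM, and the 9 listed of 10 hepatocyte markers to 249 to 267 FPKM, with Apoa2 listed at 0. Spp1 carried most of the cholangiocyte sum, at a mean of 3144 FPKM, and Cftr, another of these markers, was low at 0.111 FPKM. The 12 libraries of that table were also much alike, with 0 of 10986 genes passing the adjusted threshold between Hep-Orgs and Pri-Hep. Over the 12 libraries Krt19 lay between 229 and 247 FPKM, Epcam between 261 and 281 FPKM and Alb between 106 and 128 FPKM. In the Cho-Orgs all 10 cholangiocyte markers were listed at 1 FPKM or more in at least 1 library of every passage, and they summed to 5757 to 7115 FPKM at P0, 4054 to 4260 at P5 and 3968 to 4014 at P10. Between P0 and P10 the mean of Krt19 went from 1045 to 1402 FPKM and that of Epcam from 451 to 259 FPKM, while Spp1 went from 3682 to 527 FPKM and Cftr from 35.1 to 1.04 FPKM. The 9 listed hepatocyte markers summed to 7943 to 8627 FPKM in the Cho-Orgs at P0, to 190 to 239 FPKM at P5 and to 58.1 to 62.5 FPKM at P10. Hnf4a carried nearly all of the sum at P10, with means of 64.3 FPKM at P0, 60.9 at P5 and 56.4 at P10. Of the 9 markers, 7 were under 1 FPKM in every P10 library.

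In the Cho-Orgs the genes of both secreted carriers fell steeply between P0 and P5 and further by P10, together with Aldh1a1 and, to a smaller extent, Rarb. Aldh1a3 rose at each step. Crabp2 was near its floor at P0 and P10 and higher at P5. Dhrs3 did not pass the test in any of the 3 comparisons. The design asked how expression changed with passage, and the 9 libraries were fitted together with limma, on log2(FPKM + 1), over all 11593 genes with at least 1 FPKM in at least 3 libraries. Of the 9 genes, 6 passed this filter, and 5 of the 6 were called at P5 against P0, 1 higher and 4 lower, where 56.6% of all genes tested were called. Of all genes, 34% were called higher and 22.6% lower in that comparison. The counts were again 1 higher and 4 lower at P10 against P5, where 61.5% of all genes were called, 31% higher and 30.5% lower. They were the same at P10 against P0, where 72.3% were called, 41% higher and 31.3% lower. These backgrounds are so large that a count of 5 of 6 is not set apart from them. The median log2 fold change of the 6 genes at P10 against P0 was -1.36, and that of all genes tested was 0.07. Aldh1a3 passed the filter only through its P10 libraries, so that it had to differ. The RNA came from whole organoids, and fewer cells of a type and less RNA per cell cannot be told apart.

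Ttr had 391, 336 and 312 FPKM in the 3 P0 libraries, 27.5, 30.8 and 33.2 FPKM at P5, and 21.5, 18.5 and 20.2 FPKM at P10. All P0 libraries stood above all later ones, and the P5 and P10 libraries did not overlap. Among genes listed, Ttr stood between rank 162 and 192 at P0 and between rank 3053 and 3480 at P10. Its mean was 346 ± 40.6 FPKM at P0 and 20.1 ± 1.49 FPKM at P10 (SD, n = 3), a 17.2-fold fall. The log2 fold change was -3.46 ± 0.10 (SE) at P5 against P0, with an adjusted p of 7.4e-09 in limma, and -0.58 ± 0.10 at P10 against P5, with an adjusted p of 0.00055. Most of the fall had thus taken place by P5.

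Rbp4 had 256, 220 and 231 FPKM at P0, 34.7, 39.6 and 32.2 FPKM at P5, and 17.3, 15.6 and 13.7 FPKM at P10. The 3 groups did not overlap. The mean fell from 236 ± 18.4 FPKM at P0 to 35.5 ± 3.76 FPKM at P5 and 15.5 ± 1.79 FPKM at P10 (SD, n = 3), which is 15.2-fold over the whole course. The log2 fold change was -2.70 ± 0.10 (SE) at P5 against P0, with an adjusted p of 3.7e-08, and -1.14 ± 0.10 at P10 against P5, with an adjusted p of 8.7e-06.

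**Figure D1:**
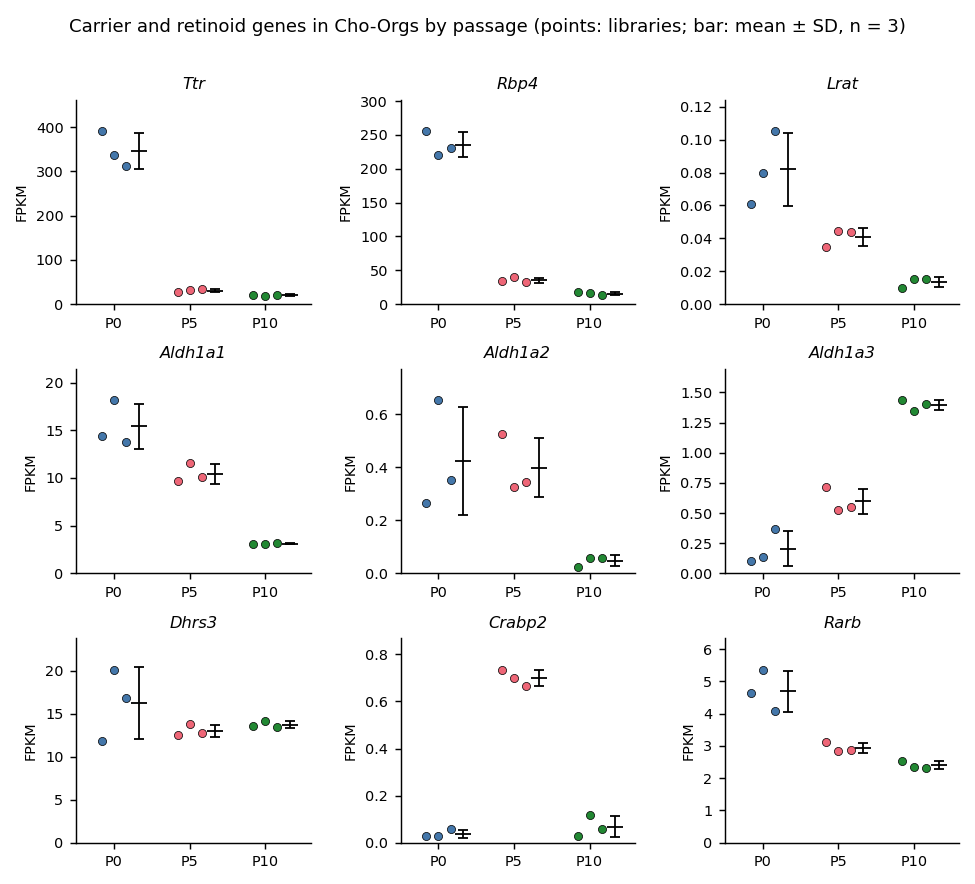
The 9 genes in Cho-Orgs at P0, P5 and P10. Each point is 1 library in FPKM on a linear axis from 0, and the bar beside the points is the mean ± SD (n = 3). Ttr and Rbp4 drop between P0 and P5, Aldh1a3 climbs to between 1.35 and 1.43 FPKM at P10, and Crabp2 stands above its other passages at P5 only, at 0.667 to 0.735 FPKM.

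The carriers did not fall as far as albumin. Alb fell from 4994 ± 406 FPKM at P0 to 79.5 ± 12.4 FPKM at P5 and 0.584 ± 0.058 FPKM at P10 (SD, n = 3). Each FPKM of Alb was met by 0.0594 to 0.0752 FPKM of Ttr in the P0 libraries, by 0.338 to 0.414 in the P5 libraries, and by 31.2 to 40.2 in the P10 libraries. The log2 ratio of Ttr to Alb, with 1 FPKM added to each, was 7.58 higher at P10 than at P0. The 3 passages differed in an exact two-sided permutation test over all assignments of the libraries, taken as unpaired (p = 0.0036, adjusted p = 0.0048 over 4 ratios). That is the smallest p these assignments allow. For Rbp4 to Alb the ratio was 0.0440 to 0.0492 at P0 and 21.2 to 32.4 at P10, a log2 difference of 7.78 with the same exact permutation p. Ttr and Rbp4 at P10 were thus found in libraries with albumin under 1 FPKM. With 0.1 FPKM added in place of 1, these log2 differences were 8.74 and 8.92.

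The ratio between the 2 partners changed much less. There were 0.654 to 0.741 FPKM of Rbp4 for each FPKM of Ttr at P0, 0.968 to 1.28 at P5 and 0.679 to 0.841 at P10. The P5 libraries stood above all others, and P0 and P10 overlapped. The exact permutation test over the 3 passages gave p = 0.0071 and an adjusted p of 0.0071. Rbp4 lagged Ttr in the first step, with a log2 fold change of -2.70 against -3.46, and fell further in the second, with -1.14 against -0.58.

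**Figure D2:**
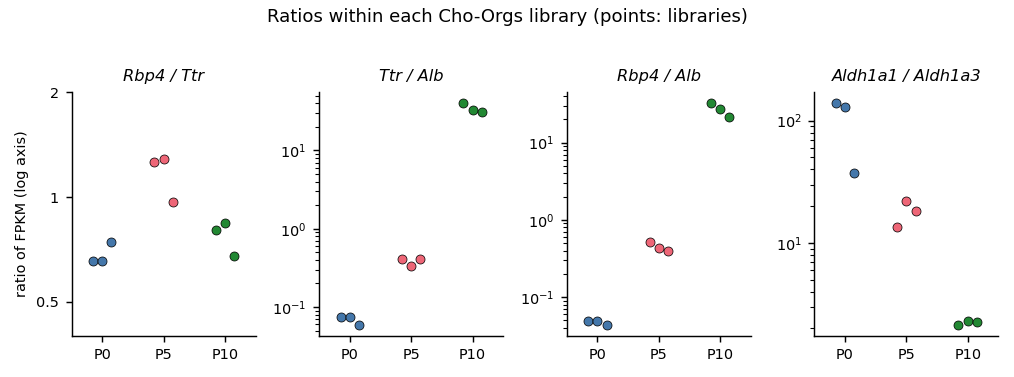
Ratios of FPKM between 2 genes of the same Cho-Orgs library, at P0, P5 and P10, on log axes. Each point is 1 library. Ttr and Rbp4 rise relative to Alb by more than 100-fold between P0 and P10, Rbp4 to Ttr stays between 0.654 and 1.28, and Aldh1a1 to Aldh1a3 drops from 37.3 or more at P0 to between 2.15 and 2.29 at P10.

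Lrat, the retinol esterifying enzyme, was barely detected in the Cho-Orgs. Its libraries held 13, 17 and 22 fragments at P0, 7, 9 and 9 at P5, and 2, 3 and 3 at P10, or 0.0820 ± 0.0223, 0.0409 ± 0.0054 and 0.0132 ± 0.0030 FPKM (SD, n = 3). With 3 fragments taken as the floor of a library, every P10 library was at or under it. The mean of Lrat at P0 was 5.49 times the mean floor at P10, a ratio that leaves out the counting error at P0. The summed fragments of Lrat were 6.19-fold lower at P10 than at P0 per fragment sequenced. The 95% exact interval for counting error was 2.92 to 15.1. Lrat fell below the filter on low values. Stellate cell markers were also near 0 in these libraries, with 9 of the 10 under 1 FPKM in every P0 library. The one exception was Reln, at 69.2 FPKM at P0, 7.36 at P5 and 0.0816 at P10, which carried nearly all of the summed level of 60.7 to 75.6 FPKM at P0. Its part in the values of Lrat was not tested.

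Of the retinal dehydrogenases, Aldh1a1 was the most abundant at each passage. It had 14.4, 18.1 and 13.8 FPKM at P0, 9.64, 11.6 and 10.1 FPKM at P5, and 3.08, 3.09 and 3.19 FPKM at P10. The groups did not overlap, and the larger step came late. The log2 fold change was -0.52 ± 0.10 (SE) at P5 against P0, with an adjusted p of 0.0016, and -1.47 ± 0.10 at P10 against P5, with an adjusted p of 1.9e-06. Aldh1a7, a near-identical copy of Aldh1a1, fell in step from 4.44 FPKM at P0 to 2.81 at P5 and 0.392 at P10. How the authors' counting divided reads between these copies is not given in the sources used here, so the level of Aldh1a1 is uncertain to that extent.

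Aldh1a2 was low, with 24, 59 and 31 fragments at P0, 45, 28 and 30 at P5, and 2, 5 and 5 at P10. Only the P10 libraries stood apart from the rest. The summed fragments were 8.5-fold lower at P10 than at P5 per fragment sequenced, with a 95% exact interval of 4.66 to 17.0 for counting error. Aldh1a3 moved the other way. It had 0.103, 0.140 and 0.369 FPKM at P0, 0.716, 0.524 and 0.553 FPKM at P5, and 1.43, 1.35 and 1.40 FPKM at P10, from 14, 19 and 49 fragments at P0 to 186, 172 and 179 at P10. The groups did not overlap, and the mean was 6.84-fold higher at P10 than at P0. On the log2(FPKM + 1) scale, which understates the change of a gene this low, the fold change was 1.00 ± 0.10 (SE), with an adjusted p of 8.7e-06 in limma. Since Aldh1a3 passed the filter only through its P10 libraries, this p-value adds no support.

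As a share of the summed FPKM of the 3 enzymes, Aldh1a1 took 96.1 ± 1.26% at P0, 91.2 ± 2.36% at P5 and 68.4 ± 0.429% at P10 (SD, n = 3). The share of Aldh1a3 was 1.33 ± 1.05% at P0, 5.28 ± 1.2% at P5 and 30.6 ± 0.876% at P10. The summed level itself dropped, so that Aldh1a3 made up a larger share of a smaller sum. The log2 ratio of Aldh1a1 to Aldh1a3 fell by 2.98 between P0 and P10, and the passages differed in the exact permutation test (p = 0.0036, adjusted p = 0.0048). The groups of both genes did not overlap and moved in opposite directions. The test of their ratio thus adds no support beyond those values.

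Dhrs3 had 11.8, 20.1 and 16.9 FPKM at P0, 12.5, 13.8 and 12.8 FPKM at P5, and 13.6, 14.2 and 13.5 FPKM at P10. The P0 libraries spread over the range of all others. The log2 fold change at P10 against P0 was -0.20 ± 0.15 (SE), with an adjusted p of 0.25. Without replicate 1 at P0, the lowest, it was -0.40 with an adjusted p of 0.0010, and at P5 against P0 it was -0.47 with an adjusted p of 0.00062, so that this library decided the call.

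Crabp2 had 1, 1 and 2 fragments at P0, 25, 24 and 23 at P5, and 1, 4 and 2 at P10. The P5 libraries stood apart from all others at 0.667 to 0.735 FPKM. With 3 fragments as the floor of a library, every P0 library was under it. The summed fragments of Crabp2 were 18.7-fold higher at P5 than at P0, with a 95% exact interval of 7.01 to 70.6 for counting error. Its summed fragments were 10.2-fold higher at P5 than at P10, with a 95% exact interval of 4.70 to 26.2. An exact permutation test over the passages, chosen after the values were seen, gave p = 0.0071 for Crabp2, 0.0036 for Lrat and 0.029 for Aldh1a2, and adjusted values of 0.011, 0.011 and 0.029 over these 3 genes under the filter.

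Rarb, the nuclear receptor, had 4.63, 5.36 and 4.08 FPKM at P0, 3.13, 2.85 and 2.86 FPKM at P5, and 2.54, 2.34 and 2.31 FPKM at P10. The groups did not overlap. The mean was 1.96-fold lower at P10 than at P0, and the log2 fold change was -0.74 ± 0.08 (SE), with an adjusted p of 2.6e-05. The first step was -0.52 ± 0.08, with an adjusted p of 0.00052. The second was -0.22 ± 0.08, with an adjusted p of 0.047, and this call did not hold with the replicate number as a block (adjusted p = 0.051), with median-ratio size factors (0.056), without the filter on low values (0.099), or without any 1 of the 6 P5 and P10 libraries (0.061 to 0.14).

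Among the 6 genes with a promoter window to search, Rarb was the one that held a direct repeat of the hexamer that retinoic acid receptors recognise. The repeat had a spacing of 5 bases, and other spacings were not searched. The hexamer was searched on both strands as AGGTCA, in which the first base could also be G and the third also T, in windows of 250 bases before to 50 bases after the start site from RefSeq (GRCm38.p6). Such repeats were found in 32 of 32851 windows, or 0.0974%. Of the 9 genes, 6 had windows, 10 in all, and 1 window held the repeat. Ttr, Aldh1a3 and Crabp2 had no window and were not searched. Rarb had 1 window, which lies inside the listed span of the gene, so that its outermost start was not searched. Of 59 windows of the other retinoid and thyroid hormone genes, 1 did, that of Cyp26a1, which encodes an enzyme that inactivates retinoic acid. The 250 bases before each of these start sites, with the repeat in capitals, are shown because Rarb and Cyp26a1 are known as target genes of retinoic acid. The Rarb stretch is chr14:16575477-16575726 on the minus strand, with the repeat at bases -53 to -37 from the start site, and the Cyp26a1 stretch is chr19:37697558-37697807 on the plus strand, with the repeat on the opposite strand at bases -32 to -16.
Rarb: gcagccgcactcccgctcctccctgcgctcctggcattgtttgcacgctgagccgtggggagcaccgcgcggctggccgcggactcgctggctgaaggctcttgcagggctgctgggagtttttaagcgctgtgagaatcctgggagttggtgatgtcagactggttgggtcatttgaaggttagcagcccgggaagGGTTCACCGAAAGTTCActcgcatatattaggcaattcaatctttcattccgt
Cyp26a1: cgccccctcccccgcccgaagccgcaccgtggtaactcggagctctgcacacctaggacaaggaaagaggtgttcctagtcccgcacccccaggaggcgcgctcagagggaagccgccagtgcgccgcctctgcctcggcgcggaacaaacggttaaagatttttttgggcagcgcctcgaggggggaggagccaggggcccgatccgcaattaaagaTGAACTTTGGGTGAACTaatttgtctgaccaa
Cyp26a1 itself had 0.244 ± 0.123 FPKM in the Cho-Orgs at P0 and 0.0096 ± 0.017 FPKM at P10 (SD, n = 3), below the filter on low values. A match of these letters is a description of the sequence and does not show that a receptor binds there.

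Other genes of the same pathways were taken from lists of 53 genes in all, of which 32 passed the filter in the Cho-Orgs. At P10 against P0, 10 rose, 16 fell and 6 were not called, so that 81.2% were called beside 72.3% of all genes. Their median log2 fold change was -0.30, beside 0.07 for all genes. The genes that fell include Stra6l, Rarres2 and Serpina7, which passed the filter only through their P0 libraries and so had to differ. Of the 5 tested genes of retinoid uptake and binding, 1 rose and 4 fell. Stra6, the receptor that takes up retinol from RBP4, rose from 1.08 ± 0.731 FPKM at P0 to 12 ± 0.299 at P5 and 11 ± 0.644 at P10 (SD, n = 3), with a log2 fold change of 2.58 at P10 against P0 and an adjusted p of 1.0e-06. Rbp2 fell by 2.39 and Stra6l by 1.99 on the log2 scale.

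Of the 9 tested genes among the retinol and retinal dehydrogenases, 4 rose, 4 fell and 1 was not called. Adh1, an alcohol dehydrogenase that also oxidises retinol, fell from 24.6 to 0.265 FPKM, by 4.32 on the log2 scale, and Dhrs4 fell by 1.09. Rdh10, which makes retinal from retinol, rose from 17.2 ± 5.34 FPKM in the P0 libraries to 82.2 ± 1.53 in those of P5 and 77.7 ± 1.23 in those of P10 (SD, n = 3), with a log2 fold change of 2.15 at P10 against P0, and Adh7 rose by a log2 fold change of 1.34. Of the retinyl ester and carotenoid enzymes, 2 of 3 tested genes rose and 0 fell, namely the lipases Lipe (0.78) and Pnpla2 (0.21). Of the other retinoid receptors, 2 of 4 tested genes rose and 1 fell, with log2 fold changes of 0.98 for Rarg, 0.72 for Rxrb and -1.06 for Rxra. Both tested genes of the retinoic acid response list fell: Tgm2 went from 107 ± 26.7 to 36.4 ± 1.90 FPKM, and Rarres2 from 3.64 ± 0.823 FPKM to being listed at 0 in every P5 and P10 library. Rarres2 passed the filter only through its P0 libraries, so that it had to differ. Of the 3 retinoic acid hydroxylases 1 was tested and 0 were called.

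Of the 8 tested thyroxine carriers and thyroid hormone genes, 1 rose, 5 fell and 2 were not called. Serpina7, the thyroxine binding globulin and thus a further thyroxine carrier beside transthyretin, fell from 18.8 ± 5.69 FPKM at P0 to 0.439 ± 0.223 at P5 and 0.0361 ± 0.045 at P10 (SD, n = 3), a log2 fold change of -4.22 at P10 against P0. Serpina7 too passed the filter only through its P0 libraries, so that it had to differ. Thrsp, a thyroid hormone responsive gene, fell by 2.98 on the log2 scale. Klf9, a transcription factor gene that responds to thyroid hormone and glucocorticoid, rose by a log2 fold change of 0.78. Dio1, which activates thyroxine in the liver, was low throughout, at 0.120 FPKM at P0 and 0.104 FPKM at P10.

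**Figure D3:**
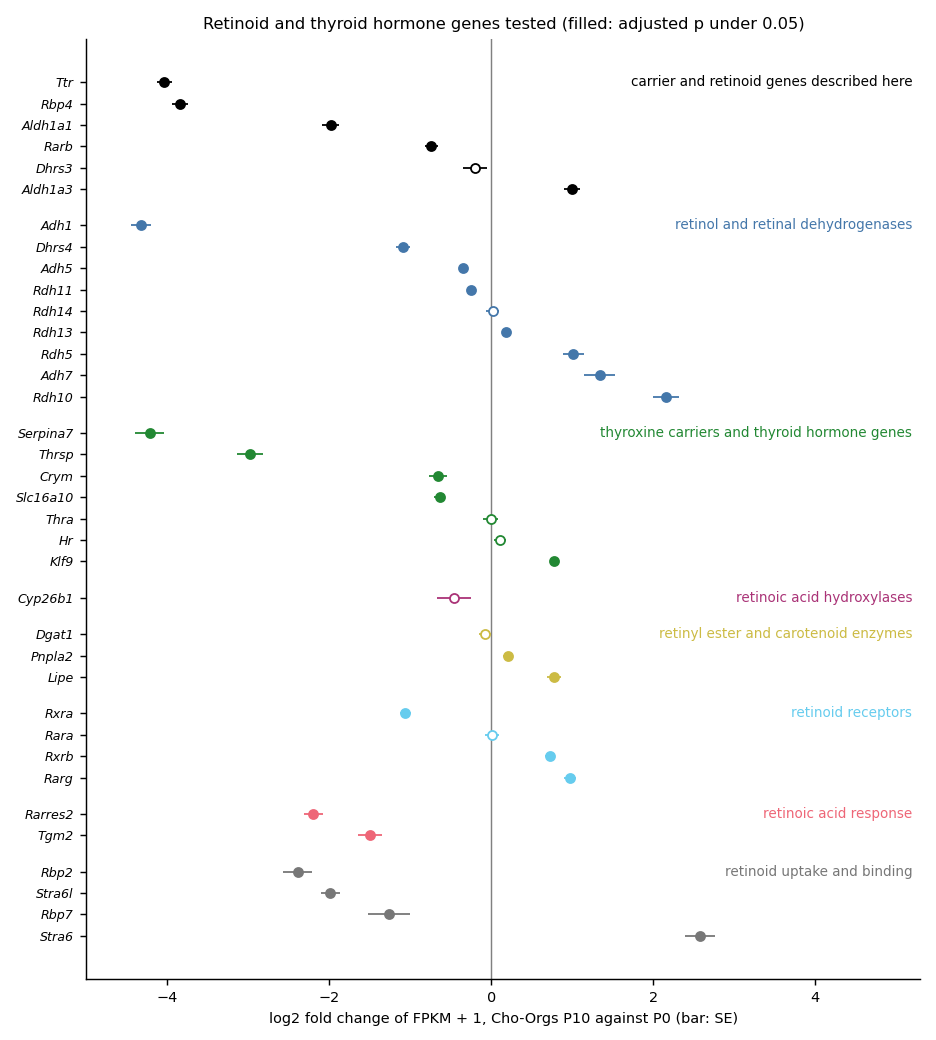
Log2 fold change of FPKM + 1 in Cho-Orgs at P10 against P0 for the 6 tested genes described here (top) and for tested genes of the other lists, grouped by role, with a few of the 32 not drawn. Points are estimates, bars are SE, and filled points passed an adjusted p of 0.05. Ttr and Rbp4 lie near Adh1 and Serpina7 at the left, while Stra6 and Rdh10 lie farthest to the right.

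The genes whose profiles over the 9 Cho-Orgs libraries were closest to those of the carriers were sought by Euclidean distance between centred log2(FPKM + 1) values. Among the nearest to Ttr were Apoh (distance 0.39) and Mat1a (0.44), genes of a plasma glycoprotein and of S-adenosylmethionine synthesis that hepatocytes express strongly. Apoh went from 21.2 FPKM at P0 to 1.02 at P5 and 0.246 at P10. Nearest to Rbp4 were Cdo1 (0.39), Nnat (0.49) and Cd302 (0.61). Between P0 and P10 Cdo1 went from 28.8 to 0.727 FPKM, Nnat from 12.2 to 0.0254 and Cd302 from 19.0 to 0.229, while Rbp4 went from 236 to 15.5 FPKM. The added 1 FPKM makes the falls of genes that end this low look smaller, so they fell further than Rbp4. Aldh1a1 was nearest to Slc25a13 (0.25), Kcnt2 (0.31) and Rap1gap (0.32). Aldh1a3 was nearest to Tnk1 (0.22), Rhebl1 (0.23) and Slc30a4 (0.23), which rose with passage. Rarb was nearest to Tspan33 (0.19), Rbm43 (0.20) and Pcbp4 (0.21), and Dhrs3 to Atp8b2 (0.24), Bik (0.24) and Slc4a4 (0.26).

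In the hepatocyte table the 4 genes that passed the filter on low values, Ttr, Rbp4, Aldh1a1 and Dhrs3, varied little over the 12 libraries. Ttr lay between 409 and 454 FPKM, with a median of 430 FPKM and a mean of 419 ± 9.71 FPKM in the libraries labelled Pri-Hep and 437 ± 12.6 FPKM in the 9 Hep-Orgs libraries (SD). Rbp4 lay between 19.9 and 22.4 FPKM, Aldh1a1 between 60.2 and 64.3 FPKM, and Dhrs3 between 22.0 and 26.9 FPKM. The groups overlapped for each of these in the comparison of Hep-Orgs with Pri-Hep. The coefficient of variation over the 12 libraries was 3.25% for Ttr, 3.60% for Rbp4, 1.99% for Aldh1a1 and 5.34% for Dhrs3.

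Of the 4 genes tested, 0 were called between Hep-Orgs and Pri-Hep, where 0% of all 10986 genes were called, and 2 had an unadjusted p under 0.05 in limma, beside 966 of all genes. These were Ttr, with a log2 fold change of 0.06 ± 0.02 (SE) and an adjusted p of 0.52, and Dhrs3, with -0.10 ± 0.03 and an adjusted p of 0.44. Between Hep-Orgs at P10 and P1, 0 of the 4 were called, 0% of all genes were called, and 0 of the 4 had an unadjusted p under 0.05, beside 986 of all genes. Between P10 and P5 0 of the 4 were called, where 0.0273% of all genes were. For any difference among the 4 groups, 0 of the 4 were called, where 0.0182% of all genes were, and 1 of the 4 had an unadjusted p under 0.05. A test on the recovered fragments with limma-voom also called 0 of the 4 genes in each of these comparisons.

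The other 5 genes were below the filter. Lrat lay between 0.376 and 0.541 FPKM, from 36 to 66 fragments, and Rarb between 0.509 and 0.923 FPKM, from 48 to 116 fragments. Aldh1a3 had 1 to 7 fragments, with 4, 7 and 5 in the P10 libraries and at most 5 in every other. Aldh1a2 had 0 to 3 fragments and Crabp2 0 to 6 fragments per library. Aldh1a1 thus took 99.8 to 99.98% of the summed FPKM of the 3 retinal dehydrogenases. Its copy Aldh1a7 was at 16.3 to 17.2 FPKM in the means of these groups. Stellate cell markers summed to 6.20 to 7.18 FPKM, and 8 of 10 macrophage markers were under 1 FPKM in every library.

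**Figure D4:**
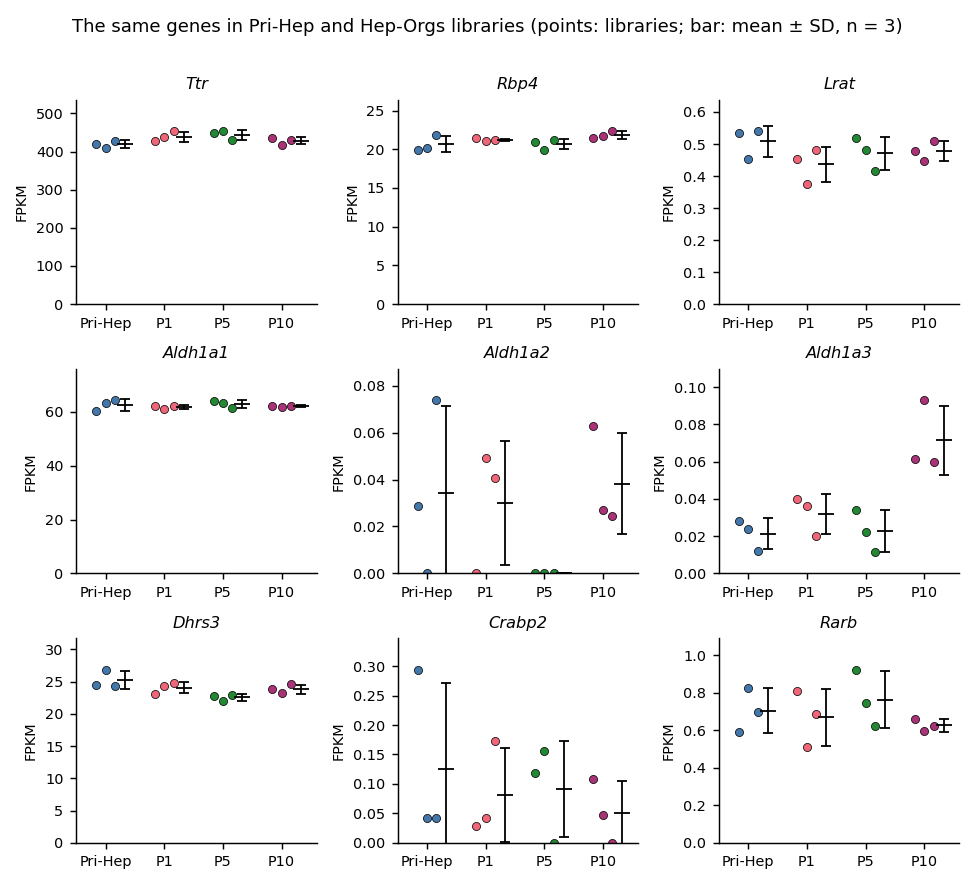
The 9 genes in the libraries labelled Pri-Hep and in Hep-Orgs at P1, P5 and P10. Each point is 1 library in FPKM on a linear axis from 0, and the bar beside the points is the mean ± SD (n = 3). Ttr stays between 409 and 454 FPKM and Aldh1a1 between 60.2 and 64.3 FPKM, while Aldh1a2, Aldh1a3 and Crabp2 rest on at most 7 fragments per library.

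The 3 shapes of Hep-Orgs at P0 had 1 library each, so that differences between them have no replicate check, and no test was made. Intervals below are 95% intervals for counting error only, in amplified cDNA without molecular identifiers. Of the 9 genes, 7 had at least 1 FPKM in 1 or more of the 3 libraries, and Aldh1a3 and Crabp2 did not. Of these 7, 4 differed by at least 1 in the log2 ratio of FPKM + 1 when grape-like was set against round-like, where 21.8% of all 12595 genes with at least 1 FPKM did. Of these 4, 3 were higher in grape-like, beside 12.9% of all genes, and 1 was lower, beside 8.82%. Between the intermediate and round-like libraries 2 of the 7 did, beside 6.39% of all genes, and between the grape-like and intermediate libraries 4 of the 7, beside 16.9%.

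The carriers were highest in the intermediate library. Ttr had 263 FPKM in grape-like, 788 in intermediate and 492 in round-like Hep-Orgs, and Rbp4 had 239, 401 and 108 FPKM. The log2 ratio of Rbp4 between grape-like and round-like was 1.15 (interval 1.10 to 1.19) and that of Ttr was -0.90 (-0.93 to -0.87), so that the carriers did not keep the same order. There were 0.911 FPKM of Rbp4 for each FPKM of Ttr in grape-like, 0.508 in intermediate and 0.219 in round-like organoids. Alb stood at 3649, 5729 and 565 FPKM in the same libraries. Krt19 stood at 9.86 FPKM in grape-like, 208 in intermediate and 272 in round-like organoids, and Epcam at 29.7, 197 and 275 FPKM. The 10 cholangiocyte markers summed to 913, 3655 and 3141 FPKM in the same order.

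Lrat had 17.9 FPKM in grape-like, 3.4 in intermediate and 4.45 in round-like Hep-Orgs, and its log2 ratio between grape-like and round-like was 1.79 (interval 1.71 to 1.88). The summed markers of other liver cells were also highest in grape-like organoids. The 10 stellate cell markers summed to 1610 FPKM in grape-like, 418 in intermediate and 352 in round-like organoids, with Hand2 at 29.4, 7.67 and 8.07 FPKM and Dcn at 658, 157 and 102 FPKM. There were 0.609 FPKM of Lrat for each FPKM of Hand2 in grape-like, 0.443 in intermediate and 0.551 in round-like organoids. For each FPKM of Dcn there were 0.0272, 0.0217 and 0.0437 FPKM of Lrat in the same order, a less steady ratio. Dcn was higher in intermediate than in round-like organoids, while Lrat was lower. The 10 macrophage markers summed to 10240, 2955 and 1631 FPKM, and the 10 sinusoidal endothelial markers to 160, 94.5 and 40.9 FPKM. Of the latter, 2 were higher in intermediate than in grape-like organoids, Gpr182 at 37.3 against 18.3 FPKM and Oit3 at 1.37 against 1.28 FPKM. The part of these cells in the values of Lrat and the other genes was not tested.

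Dhrs3 fell in order from 41.6 FPKM in grape-like to 18.3 in intermediate and 9.25 in round-like organoids, with a log2 ratio of 2.05 (interval 1.97 to 2.14) between the first and the last. Aldh1a1 went the other way, with 18.2, 36.2 and 37.6 FPKM. The intermediate and round-like libraries differed in Aldh1a1 by a log2 ratio of -0.05 (interval -0.10 to -0.01), and with median-ratio size factors by 0.09, so that their order was not fixed by these data. Aldh1a2 had 6.28 FPKM in grape-like, 0.142 in intermediate and 8.37 in round-like organoids, from 568, 13 and 762 fragments, and was thus nearly missing from 1 of the 3 libraries. It took 25.4% of the summed FPKM of the retinal dehydrogenases in grape-like, 0.390% in intermediate and 18.1% in round-like organoids. Aldh1a3 stayed between 0.131 and 0.314 FPKM. Crabp2 had 28, 5 and 0 fragments, and a count of 0 with a limit of 3 fragments allows up to 0.0829 FPKM in the round-like library. Rarb had 10.2, 5.59 and 7.06 FPKM.

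**Figure D5:**
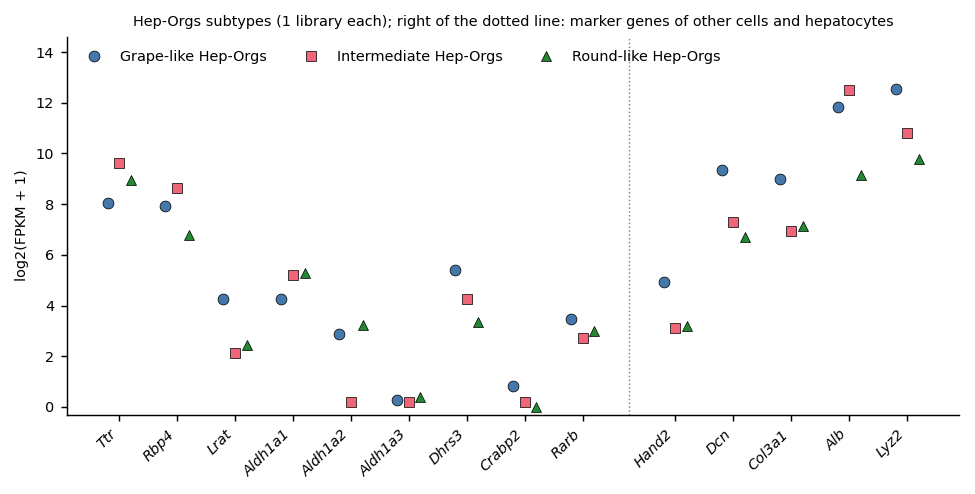
Levels in the 3 shapes of Hep-Orgs, with 1 library each and no replicates, as log2(FPKM + 1). The 9 genes stand left of the dotted line, and 3 stellate cell markers (Hand2, Dcn, Col3a1), the hepatocyte gene Alb and the macrophage gene Lyz2 stand right of it. Lrat, Dhrs3 and Hand2 are highest in grape-like organoids, and Aldh1a2 is near 0 in the intermediate library alone.

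The 3 tables were scaled apart and the shapes came from amplified cDNA, so values of different tables are given side by side and were not tested against each other. Within its own table, Ttr was the most abundant of the 9 messages per length in the hepatocyte table and the shapes of Hep-Orgs, and in the Cho-Orgs at P0 and P10, while the mean of Rbp4 at P5, 35.5 FPKM, lay above that of Ttr, 30.5 FPKM, with overlapping libraries. Rbp4 was at 15.5 to 236 FPKM in the means of the Cho-Orgs groups, 20.7 to 21.8 in those of the hepatocyte table and 108 to 401 in the 3 shapes. Each FPKM of Ttr was met by 0.0439 to 0.0520 FPKM of Rbp4 over the hepatocyte table, by 0.654 to 1.28 over the Cho-Orgs and by 0.219 to 0.911 over the shapes. The values of Lrat ranged from 0.376 to 0.541 FPKM over the 12 hepatocyte-table libraries, from 0.00981 to 0.105 FPKM over the Cho-Orgs and from 3.4 to 17.9 FPKM over the shapes. Those of Aldh1a3 ranged, in the same order, from 0.0115 to 0.0930, from 0.103 to 1.43 and from 0.131 to 0.314 FPKM.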

How the data were processed

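Poly(A) RNA was sequenced for 21 bulk libraries and amplified cDNA for 3 Smart-Seq libraries. The authors deposited FPKM values in 3 tables, each scaled on its own. The submitters' processing notes name featureCounts 2.0.3, edgeR 3.40.2 and mm10; the aligner and annotation release are not given in the sources used here. Groups followed the sample labels. In the hepatocyte table, which lists gene lengths, all deposited FPKM values were whole multiples of 1 fragment within 0.01 (1e-05 of larger counts), which gave fragments per gene. In the other tables depth was estimated from the steps of low values, and fragments of Lrat, Aldh1a2, Aldh1a3 and Crabp2 were taken from the length that made them whole within 0.06 in all 9 Cho-Orgs libraries. Intervals and floors cover counting error only.

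Values were compared as log2(FPKM + 1) with limma 3.58.1 (lmFit, eBayes with trend, R 4.3.3), two-sided, with Benjamini-Hochberg adjustment over all genes with at least 1 FPKM in at least 3 libraries and a threshold of 0.05. A pseudocount makes the fold changes of low genes too small. Ratios within libraries were tested by exact permutation (Python 3.11.15, scipy 1.17.1). The scripts were tested on simulated data. The labels and methods do not settle whether replicates were separate cultures or mice, and p-values then measure the spread between these libraries. A legend of the study ties the replicate numbers to 3 mice. The main fits and the permutation tests nevertheless treated the libraries as unpaired, and the replicate number was a block only in an alternative limma fit. No permutation within replicate numbers was run, so the permutation p-values hold only for unpaired libraries. Same-numbered libraries did not deviate together: the median correlation of deviations from group means was -0.0063 over 9 pairs in the cholangiocyte table and -0.0011 over 18 pairs in the hepatocyte table. Library pairs of the hepatocyte table differed by 1.79 to 4.71 times counting noise per gene, so none was counted as a duplicate.

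The genes, lists and tests were chosen with earlier results of these data known. All 9 genes are described in every group, with Alb, Krt19 and Epcam as references. From each list up to 4 called genes with the largest change at P10 against P0 are named, with Serpina7, Dio1, Stra6 and Cyp26a1 in any case, and for each tested gene the 3 nearest profiles. Some genes that this rule names are not reported here. Aldh1a7, Apoa2, Hnf4a, Spp1, Cftr, Gpr182, Oit3, Reln, Hand2, Dcn, Col3a1 and Lyz2 were named after their values were seen. Of the 53 listed genes some were not in every table, and the hepatocyte marker Tf was not found under that symbol. The alternatives were a pseudocount of 0.1, TPM, median-ratio size factors, no filter on low values, a replicate block, limma-voom on the recovered fragments and leaving out each library. The number of columns of unknown samples was 0.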

Additional observations from a re-analysis of the deposited data

Results flagged for a closer look

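Between P5 and P10 all Rbp4 values were lower in the Cho-Orgs and slightly higher in the libraries labelled Hep-Orgs, whose markers go against their label. In the Cho-Orgs it went from 34.7, 39.6 and 32.2 FPKM at P5 to 17.3, 15.6 and 13.7 FPKM at P10, a log2 fold change of -1.14, lower in 3 of 3 libraries. In the Hep-Orgs libraries it went from 21.0, 19.9 and 21.2 FPKM to 21.4, 21.7 and 22.4 FPKM, a log2 fold change of 0.074 with an adjusted p of 0.45 in limma, which was not called. The difference between these was not tested, since their tables were scaled apart. Dhrs3 was likewise higher in every P10 than in every P5 library labelled Hep-Orgs, with a log2 fold change of 0.077 and an adjusted p of 0.49 in limma. Such small shifts may be spread between libraries, and how many of all genes showed them is not given here.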

How the results depend on the processing

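Over the alternatives, 142 of 145 recomputed counts and ratios kept their direction and stayed within 1.5 times the main count or on the same side of the threshold. The exceptions were the number of the 9 genes called at P10 against P5 in the Cho-Orgs, which was 3 when any 1 P10 library was left out, because Aldh1a3 then fails the filter and Rarb loses its call. Over all 9 libraries left out in turn, this count was 3 to 5. The 145 include the counts of 0 in the hepatocyte table, which could hardly change where nearly no gene was called. They do not include the fold changes of single genes, of which 6 changed sign when a library was left out. In the fits with a replicate block, 5 genes were called at P5 against P0, 4 at P10 against P5, where Rarb was lost, and 5 at P10 against P0; the block changed no other call. Without the filter, 7, 6 and 7 of 9 genes were called. The calls of Dhrs3 and Rarb changed only as given with their values. Aldh1a3 was tested in 6 of the 9 fits with a Cho-Orgs library left out, in all 3 comparisons, since it fails the filter without any 1 P10 library. The counts at P5 against P0 and at P10 against P0 were each 4 to 6 over these fits. In the hepatocyte table, where 0 genes were called, the fold change of Aldh1a1 between Hep-Orgs and Pri-Hep changed sign without Pri-Hep replicate 2 (0.0023), Pri-Hep replicate 3 (0.015) or Hep-Orgs P5 replicate 3 (0.00051), within a range of -0.033 to 0.015, and at P10 against P1 without Hep-Orgs P1 replicate 2 (-0.0034), within a range of -0.0034 to 0.013. That of Dhrs3 at P10 against P1 changed sign without Hep-Orgs P1 replicate 3 (0.0076) or Hep-Orgs P10 replicate 2 (0.0067), within a range of -0.042 to 0.0076. Rescaling moved log2 ratios between the shapes beyond their counting intervals in many cases, and with median-ratio size factors Aldh1a1 between grape-like and round-like dropped to -0.93 and Dhrs3 between intermediate and round-like reached 1.05. TPM moved the median of all genes at P5 against P0 in the Cho-Orgs to 0.11. Depth limits Lrat, Aldh1a2 and Crabp2, and with 1 library per shape no spread between organoids is known.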
